A study of Mus musculus with 12 samples.

Results

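The 10 genes described here encode G protein-coupled receptors of the pancreatic islet: Glp1r, Gipr, Gcgr, Gpr119, Ffar1, Chrm3, Casr, Adra2a, Sstr3 and Gprc5b. They were chosen by name from the 22141 genes of a transcript count table summed per gene, and all 10 passed the filter on low counts. The table holds 12 libraries of messenger RNA from cultured islets of male wild-type (WT) mice 10 to 12 weeks old, kept in lots of about 120 islets. Islets received vehicle, vehicle with C3a, palmitate, or palmitate with C3a, with 3 libraries in each group. Palmitate is a saturated fatty acid used to stress beta cells in culture, and C3a is the peptide cut from complement component C3, which acts through the receptor C3ar1. The labels give neither the strain nor the dose and time of treatment, and they do not say whether same-group libraries were made from different animals or cultures. The p-values therefore measure the spread between these libraries, which may be technical.

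These receptors sit in the plasma membrane and pass the signal of a hormone, nutrient or neurotransmitter to a G protein inside the cell. Receptors that couple to Gs raise cyclic AMP, those that couple to Gq activate phospholipase C and release calcium, and those that couple to Gi/o lower cyclic AMP and restrain secretion. In beta cells the Gs and Gq routes amplify glucose-stimulated insulin secretion, and the Gi/o route holds it back. Islets are a mixture of cells, so a lower level in these libraries can come from fewer cells of a type or from less RNA per cell, which bulk counts cannot tell apart.

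Totals ran from 22216420 to 26110989 counts in the 4 libraries of sequencing batch 1 (replicate 1 of each group) and from 35876350 to 50264695 in the 8 libraries of batch 2 (replicates 2 and 3). The insulin, glucagon and other endocrine markers were present in every group, and none of the listed markers of 10 cell types was at 0 in any group. Of 12 beta cell markers, 8 were lower and 1 was higher in the average palmitate effect, with a median log2 change of -0.28. Over all genes tested, 19.4% were called lower and 20.3% higher there, and each marker count is to be read beside these shares. The largest falls were those of Slc2a2, the beta cell glucose transporter gene, by 0.92 ± 0.08 (SE), and Slc30a8, the granule zinc transporter gene, by 0.78 ± 0.05 on the log2 scale. The insulin gene Ins2 fell by 0.18 ± 0.07 (edgeR adjusted p = 0.0486), and G6pc2 was the marker called higher, by 0.21 ± 0.07. Ins1 (-0.24 ± 0.09), Mafa (-0.28 ± 0.10) and Iapp (0.14 ± 0.06) did not pass. The summed beta cell markers ran from 1.638e+05 to 1.89e+05 CPM (counts scaled to library size) in vehicle and from 1.47e+05 to 1.8e+05 in palmitate, and from 1.761e+05 to 1.964e+05 in vehicle with C3a and 1.37e+05 to 1.69e+05 in palmitate with C3a. Of 8 endothelial markers 7 were lower (median -0.47), with sums of 212.9 to 297 CPM in vehicle, 114.7 to 215.4 in palmitate, 195.1 to 271.5 in vehicle with C3a and 125.3 to 226.8 in palmitate with C3a. Among 9 alpha cell markers 2 were higher and 3 lower, and none of 11 acinar markers passed. Of 6 delta cell markers 3 were lower (Ghsr, Lepr and Pdx1, which is also counted with the beta cell markers), and Sst, Hhex and Rbp4 did not pass. Of 9 fibroblast and pericyte markers 3 were lower (Pdgfrb, Rgs5 and Acta2). The others of that list ran from -0.01 (Col1a2) to 1.565 (Lum) and did not pass. Of 8 macrophage markers 1 was higher and 1 lower. Of 5 Schwann cell markers 3 were lower (median -0.28), and of 3 PP cell markers 1 was higher. Of 6 duct markers 1 was higher (median 0.35), with sums of 405.8 to 488.1 CPM in vehicle, 485.9 to 565.8 in palmitate, 400.2 to 467.2 in vehicle with C3a and 529.6 to 595.1 in palmitate with C3a. The part of these marker changes in the receptor results was not tested.

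With palmitate, 8 of the 10 receptor transcripts fell and none rose. Glp1r fell furthest, to 53.8% of its level without palmitate, followed by Gcgr at 61.5% and Gpr119 at 66.8%. Ffar1 was at 71.8%, Gipr at 77.2%, Adra2a at 82.9%, Chrm3 at 86.9% and Sstr3 at 88.2%. Casr (85.9%) and Gprc5b (91.5%) did not pass. These percentages come from the average palmitate effect, the mean of the palmitate difference without and with C3a (6 libraries against 6, quasi-likelihood test of edgeR, p adjusted by the Benjamini-Hochberg method over all genes tested). A gene was called at an adjusted p under 0.05.

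The share of genes called lower in that comparison, the background beside 8 of 10, was 19.4% of the 15794 tested. The share called higher was 20.3%. The members were chosen with earlier results of these data known, so a count above the background is no test of them as a set. In palmitate against vehicle 8 of 10 members were called lower, where the background was 12%, and 0 higher, where it was 13.4%. In palmitate with C3a against vehicle with C3a also 8 of 10 were called lower (background 13.1%) and 0 higher (13.8%). The first of these lacked Adra2a and Casr, and the second Gprc5b and Casr. The median log2 change of the members was -0.37, -0.33 and -0.32 in these comparisons and the average, and the median of all genes was -0.02, 0.01 and -0.00. In 6 members the palmitate libraries all lay below the vehicle libraries, and in 6 they did so with C3a (15.3% and 14.8% of all genes). For 3 members, Glp1r, Gcgr and Ffar1, all 6 palmitate libraries lay below all 6 others (8.33% of all genes). Leaving out any 1 library lowered the count of members called, and the count of all genes called fell too. Without C3a 4 to 7 members passed, and 2760 to 3751 genes in place of 4005. The lowest count, 4, was without palmitate replicate 1 (2760 genes). With C3a 5 to 7 members passed, and 3023 to 3849 genes in place of 4246. There it was 5 without vehicle with C3a replicate 1 (3023 genes), and 5 without palmitate with C3a replicate 1 (3243 genes).

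**Figure D1:**
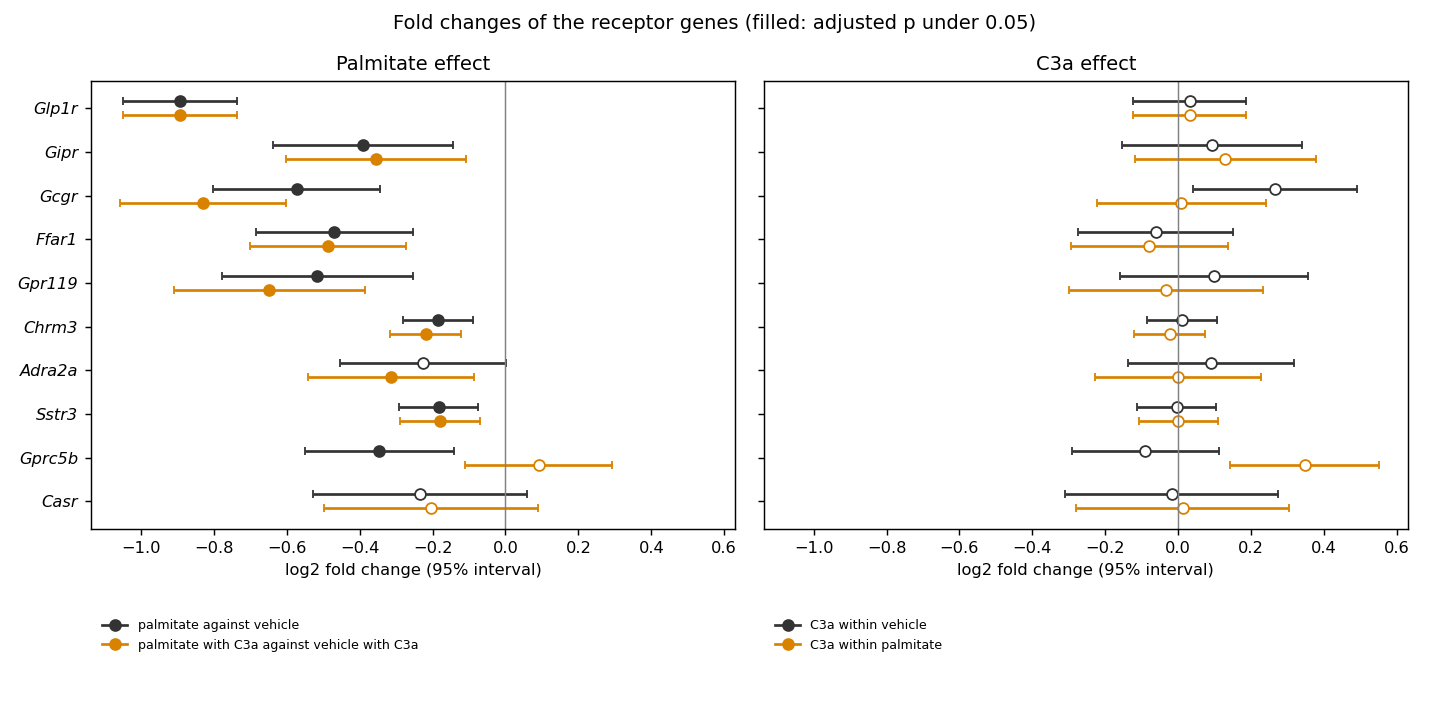
Log2 fold change of each receptor gene in edgeR, with palmitate effects in the left panel (black without C3a, orange with it) and C3a effects in the right panel (black in vehicle, orange in palmitate); bars are 95% intervals and filled points passed an adjusted p of 0.05. Glp1r lay lowest, at -0.89, without C3a and with it, Gprc5b was the only gene with a palmitate estimate above 0 (0.09, with C3a), and no C3a point is filled.

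The promoter stretches of 4 members are shown because these genes lie at different depths of the response: Glp1r, Gpr119 and Ffar1 fell, and Casr did not pass. They come from RefSeq promoter windows of GRCm38.p6 (300 bases, of which 250 lie before the gene start), cut to the bases outside GENCODE exons. A window was found for 9 of the 10 members, not for Gipr. Capitals mark every match, on either strand, to 1 of 9 motifs: the cAMP response element half-site TGACG, the CCAAT box, the TATA box TATAAA, the GC box GGGCGG, the E-box CANNTG, the nuclear receptor half-site AGGTCA, the homeodomain core TAATTA, the forkhead core TGTTTAC and the MAF half-site TGCTGAC. Each is written 5′ to 3′ on the strand of its gene.
Glp1r, chr17:30901617-30901816, plus strand: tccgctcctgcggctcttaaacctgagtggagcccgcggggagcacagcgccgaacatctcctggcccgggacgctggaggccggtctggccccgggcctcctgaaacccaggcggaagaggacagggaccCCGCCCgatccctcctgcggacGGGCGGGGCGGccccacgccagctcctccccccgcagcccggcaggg
Gpr119, chrX:48674479-48674728, minus strand: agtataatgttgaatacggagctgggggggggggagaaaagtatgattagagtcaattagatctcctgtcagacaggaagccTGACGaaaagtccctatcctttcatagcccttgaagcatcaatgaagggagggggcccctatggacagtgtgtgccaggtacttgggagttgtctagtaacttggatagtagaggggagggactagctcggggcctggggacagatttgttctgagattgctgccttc
Ffar1, chr7:30861565-30861720, minus strand: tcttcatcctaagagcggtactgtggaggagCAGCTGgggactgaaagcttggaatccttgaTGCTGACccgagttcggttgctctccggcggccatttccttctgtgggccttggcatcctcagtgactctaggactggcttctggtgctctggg
Casr, chr16:36562142-36562384, minus strand: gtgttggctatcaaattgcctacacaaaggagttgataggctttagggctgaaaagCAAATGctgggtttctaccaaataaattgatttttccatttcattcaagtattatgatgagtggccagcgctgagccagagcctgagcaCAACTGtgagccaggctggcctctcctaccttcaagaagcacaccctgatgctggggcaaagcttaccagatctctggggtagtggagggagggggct

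The stretches differed in composition and in their matches. The Glp1r window was 73.7% G and C and carried 3 GC box matches, of which a pair overlaps, and 1 E-box match outside the stretch shown. The Casr window was 49.7% G and C with E-box matches only. The median over 32851 windows was 52.7%. Gpr119 carried a TGACG match, as did Adra2a and Sstr3 (3 of 9 members against 20.8% of all windows). GC boxes stood in 4 of 9 (Glp1r, Gcgr, Adra2a and Gprc5b, against 35.7%) and E-boxes in 7 of 9 (against 72.3%). The TGCTGAC match of Ffar1 was the single one among members (4.67% of all windows), and TATAAA occurred in Adra2a alone (13.6%). The RefSeq start of Adra2a lies 1108 bases from its GENCODE start, so its window and matches fall inside the single GENCODE exon. For Sstr3 the RefSeq start lies 340 bases from the GENCODE start. CCAAT (37.4%), AGGTCA (16.3%), TAATTA (5.29%) and TGTTTAC (3.65%) had no match in the 9 windows. A match is a stretch of letters, not a known site of binding.

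The receptors of the incretin and glucagon hormones couple to Gs. Glp1r encodes the receptor for glucagon-like peptide 1, the target of the GLP-1 drugs (ENSMUSG00000024027.8, GRCm38 chromosome 17, 30901817 to 30940791, plus strand). Replicates 1, 2 and 3 of vehicle held 242, 284 and 308 CPM, and those of palmitate 127, 177 and 145 CPM. With C3a it had 239.5, 324 and 291 CPM with vehicle and 138, 163 and 158 CPM in palmitate. The highest library with palmitate thus lay below the lowest without it. The log2 change was -0.89 ± 0.07 (SE) without C3a (edgeR adjusted p = 1.23e-05) and -0.89 ± 0.07 with it (edgeR adjusted p = 9.47e-06). These comparisons share no library, but they share the fit with its batch term and its estimate of the spread. Same-numbered libraries of the 4 groups were also taken as paired, so the comparisons are not independent. The fit holds the batch and not these pairs, which entered as a block only in an alternative fit. Of the 3066 genes called lower in the average effect Glp1r ranked 29 by p (edgeR adjusted p = 2.54e-07), and among 79 receptor genes tested only 2 had a lower fold change.

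Gcgr encodes the glucagon receptor, best known from liver and present in beta cells (ENSMUSG00000025127.15, chromosome 11, 120530699 to 120538986, plus strand). It had 24.5, 27.5 and 29.9 CPM with vehicle and 15.8, 19.6 and 19.7 CPM in palmitate, without overlap. With C3a it had 32.04, 34.3 and 31.9 CPM with vehicle and 14.4, 17.9 and 23.1 CPM in palmitate, again without overlap. For Gcgr the log2 change was -0.57 ± 0.10 (edgeR adjusted p = 0.00211) without C3a and -0.83 ± 0.10 (edgeR adjusted p = 0.00017) with it. The difference of these changes was -0.26 ± 0.15 (unadjusted p = 0.108, 95% interval -0.58 to 0.07), so it did not pass.

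Gipr encodes the receptor for glucose-dependent insulinotropic polypeptide, the other incretin (ENSMUSG00000030406.7, chromosome 7, 19156061 to 19166127, minus strand). It had 47.5, 55.6 and 44.6 CPM with vehicle and 34.0, 42.9 and 35.7 CPM in palmitate, and with C3a 54.4, 56.5 and 46.7 CPM with vehicle and 38.9, 39.2 and 45.1 CPM in palmitate. The groups did not overlap in either comparison, by a margin of under 2 CPM in both. The log2 change was -0.39 ± 0.11 (edgeR adjusted p = 0.0263) and, with C3a, -0.35 ± 0.11 (edgeR adjusted p = 0.0379). Its call ended without vehicle replicate 1 (adjusted p = 0.079) or 2 (0.1), or palmitate replicate 1 (0.107) or 3 (0.101). With C3a it ended without replicate 1 or 2 of either group (0.101 to 0.153). In batch 2 alone the average change was -0.32 and did not pass (edgeR adjusted p = 0.0599).

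The balance of Glp1r to Gipr differed with palmitate. Per kilobase of transcript the ratio of their levels was 2.50, 2.51 and 3.39 in vehicle and 1.84, 2.02 and 2.00 in palmitate. With C3a it was 2.16, 2.82 and 3.06 in vehicle and 1.74, 2.04 and 1.72 in palmitate. No palmitate library reached the ratio of a library without palmitate. The ratio of Glp1r to Gcgr was 3.40, 3.54 and 3.53 in vehicle and 2.77, 3.04 and 2.53 in palmitate, without overlap. With C3a it was 2.60, 3.26 and 3.14 in vehicle and 3.31, 3.10 and 2.33 in palmitate, which overlapped. The ratio of Gipr to Gcgr ran from 1.03 to 1.41 without palmitate and from 1.26 to 1.90 with it, so these overlapped. The ratios are descriptions and carry no test.

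Gpr119 encodes a Gs-coupled receptor for lipid amides and monoacylglycerols (ENSMUSG00000051209.3, chromosome X, 48667979 to 48674478, minus strand). It had 28.4, 18.5 and 21.0 CPM with vehicle and 21.7, 11.7 and 14.5 CPM in palmitate, so the groups overlapped through the higher values of replicate 1. With C3a it had 26.4, 24.6 and 20.3 CPM with vehicle and 17.8, 13.6 and 14.5 CPM in palmitate, without overlap. All 6 same-numbered pairs were lower with palmitate. Its log2 change was -0.52 ± 0.12 (edgeR adjusted p = 0.00855) and, with C3a, -0.65 ± 0.12 (edgeR adjusted p = 0.00221). Neither passed in the fit without a batch term (0.201 and 0.0969).

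Ffar1 encodes GPR40, the Gq-coupled receptor for long-chain fatty acids, a class to which palmitate belongs (ENSMUSG00000044453.5, chromosome 7, 30857390 to 30861564, minus strand, a single exon). It had 92.9, 97.8 and 99.0 CPM with vehicle and 61.0, 84.2 and 64.7 CPM in palmitate. With C3a it had 91.2, 98.8 and 87.4 CPM with vehicle and 56.9, 73.4 and 68.3 CPM in palmitate. The groups did not overlap in either comparison, and replicate 2 was the highest palmitate library in both. In edgeR the log2 change was -0.47 ± 0.10 (edgeR adjusted p = 0.00508) and -0.49 ± 0.10 with C3a (edgeR adjusted p = 0.00391). In batch 2 alone neither passed (0.0614 and 0.0584).

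**Figure D2:**
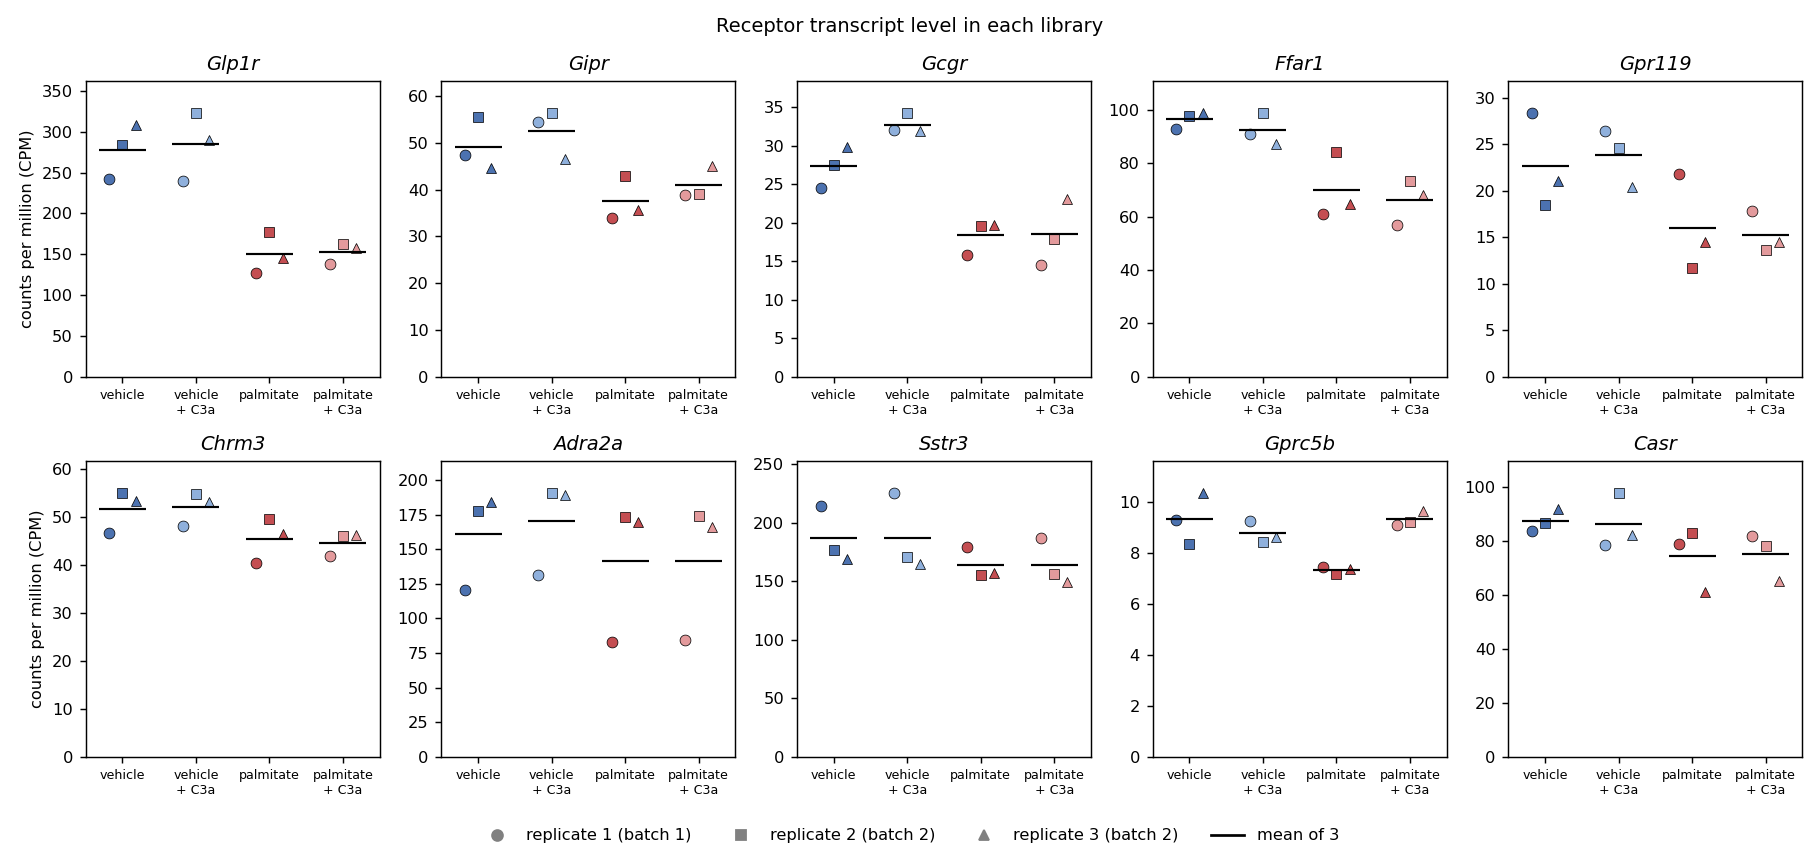
Level of each receptor gene in CPM (linear axis from 0) in the 12 libraries, by group; circles are replicate 1 (batch 1), squares and triangles are replicates 2 and 3 (batch 2), and a line gives the mean of 3 libraries. Glp1r, Gcgr and Ffar1 show all palmitate libraries below all others, while the replicate 1 libraries of Adra2a lie below and those of Sstr3 above their groups.

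Chrm3 encodes the muscarinic acetylcholine receptor M3, the Gq-coupled route by which parasympathetic nerves raise insulin secretion (ENSMUSG00000046159.16, chromosome 13, 9875486 to 10360847, minus strand). It had 46.7, 55.0 and 53.2 CPM with vehicle and 40.4, 49.5 and 46.3 CPM in palmitate, and with C3a 48.2, 54.7 and 53.0 CPM with vehicle and 41.8, 46.0 and 46.1 CPM in palmitate. The groups overlapped without C3a and not with it. The fall was small and even over the pairs, from 0.15 to 0.25 in size on the log2 scale. The log2 change was -0.19 ± 0.04 (edgeR adjusted p = 0.00953) and -0.22 ± 0.04 with C3a (edgeR adjusted p = 0.00351). Without palmitate replicate 1 the first of these did not pass (adjusted p = 0.0595), nor did it in batch 2 alone (0.0911). In the fit without a batch term neither passed (0.235 and 0.146).

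Casr encodes the calcium-sensing receptor, which couples to Gq and Gi/o and is known from the parathyroid gland (ENSMUSG00000051980.13, chromosome 16, 36493696 to 36562141, minus strand). It had 83.8, 86.5 and 91.7 CPM with vehicle and 79.0, 82.9 and 61.1 CPM in palmitate. With C3a it had 78.6, 97.8 and 82.1 CPM with vehicle and 81.7, 78.2 and 65.1 CPM in palmitate. Replicate 3 was the lowest palmitate library in both. The log2 change of -0.23 ± 0.13 did not pass (edgeR adjusted p = 0.232), nor did that of -0.20 ± 0.13 with C3a (0.296). Their average was -0.22 ± 0.09 with a 95% interval from -0.43 to -0.01 (edgeR adjusted p = 0.0879). Blocking on the replicate number gave -0.23, which passed (adjusted p = 0.0391), and the average also passed with DESeq2 (0.0325) and for the most abundant transcript alone (0.0248).

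Adra2a and Sstr3, the next members, couple to Gi/o. Adra2a encodes the adrenergic receptor through which noradrenaline stops insulin release (ENSMUSG00000033717.6, chromosome 19, 54044151 to 54048982, plus strand, a single exon). It had 120.2, 177 and 184 CPM with vehicle and 82.8, 173 and 169 CPM in palmitate, and with C3a 131, 191 and 189 CPM with vehicle and 84.7, 174 and 166 CPM in palmitate. Replicate 1, from batch 1, was the lowest library of every group. The palmitate difference was -0.54 and -0.63 in the pairs of batch 1 and from -0.19 to -0.03 in the 4 pairs of batch 2. The log2 change did not pass without C3a (-0.23 ± 0.10, edgeR adjusted p = 0.141) and passed with it (-0.31 ± 0.10, adjusted p = 0.0451). Blocking on the replicate number took that call away (adjusted p = 0.0657), as did leaving out vehicle with C3a replicate 1 (0.187), 2 (0.0644) or 3 (0.0515), or palmitate with C3a replicate 1 (0.164) or 3 (0.0795). The average, -0.27 ± 0.07, passed (edgeR adjusted p = 0.0129), but was -0.12 in batch 2 alone (0.0533).

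Sstr3 encodes a somatostatin receptor found on the primary cilia of islet cells (ENSMUSG00000044933.3, chromosome 15, 78537008 to 78544685, minus strand). It had 214, 177 and 168 CPM with vehicle and 179, 155 and 157 CPM in palmitate, and with C3a 225, 170.4 and 165 CPM with vehicle and 187, 156 and 149 CPM in palmitate. Here replicate 1 was the highest library of every group, which made the groups overlap, yet all 6 pairs were lower with palmitate. Its log2 change was -0.18 ± 0.05 (edgeR adjusted p = 0.0184) and -0.18 ± 0.05 with C3a (edgeR adjusted p = 0.02). The first did not pass without vehicle replicate 1 (adjusted p = 0.0605) or 2 (0.0712) or palmitate replicate 1 (0.131). The second did not pass without vehicle with C3a replicate 1 (0.12) or palmitate with C3a replicate 1 (0.0621) or 3 (0.0545). Neither passed in the fit without a batch term (0.455 and 0.459) or in batch 2 alone (0.146 and 0.151).

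Gprc5b encodes an orphan receptor of class C with no established ligand (ENSMUSG00000008734.9, chromosome 7, 118972047 to 118995211, minus strand). It was the lowest of the members, with 188 to 486 counts a library. It had 9.27, 8.32 and 10.3 CPM with vehicle and 7.43, 7.18 and 7.37 CPM in palmitate, without overlap. With C3a it had 9.25, 8.42 and 8.62 CPM with vehicle and 9.08, 9.19 and 9.63 CPM in palmitate. The 3 libraries with palmitate alone were thus the lowest of the 12. In edgeR the log2 change was -0.35 ± 0.09 without C3a (edgeR adjusted p = 0.0176) and 0.09 ± 0.09 with it (edgeR adjusted p = 0.526). The first did not pass without palmitate replicate 1 (adjusted p = 0.0602) or 2 (0.0516) or vehicle replicate 3 (0.104). An exon of Gprc5b overlaps one of Iqck on the opposite strand, which held 669 counts over all libraries, and the strand setting of the counting is not given in the sources used here. The other members share no exon with another gene of the annotation.

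**Figure D3:**
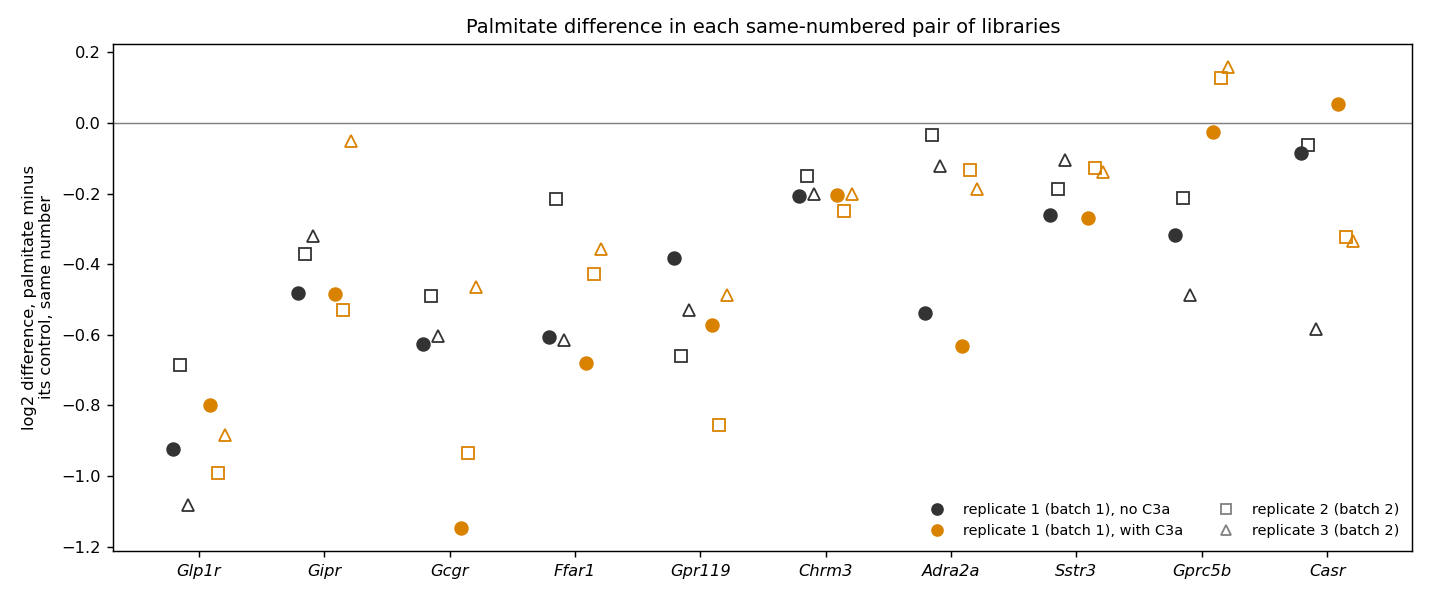
Log2 difference in CPM between each palmitate library and the same-numbered library without it, for each receptor, without C3a (black) and with it (orange); filled circles are replicate 1 (batch 1), open squares and triangles replicates 2 and 3 (batch 2). For 8 members all 6 differences lie below 0, while Casr has 5 and Gprc5b 4 of 6 below 0. The share of all genes with 6 of 6 below 0 was not computed, so this count only describes the members.

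C3a moved none of the 10 members past the threshold. In edgeR 0 of 15794 genes were called for C3a within vehicle, within palmitate or in the interaction (background 0%), with 347, 430 and 251 genes at an unadjusted p under 0.05, and DESeq2 called 2, 1 and 0 genes, none of them a member. One member had an unadjusted p under 0.05 in each: Gcgr within vehicle, and Gprc5b in the other two. Gcgr was 0.27 ± 0.10 higher with C3a in vehicle (unadjusted p = 0.0244, higher in 3 of 3 pairs), and its groups did not overlap. Gprc5b was 0.35 ± 0.09 higher with C3a in palmitate (unadjusted p = 0.00313, higher in 3 of 3 pairs), with an adjusted p of 1.0. Its interaction, the palmitate change with C3a minus that without, was 0.44 ± 0.13 (unadjusted p = 0.00635, 95% interval 0.15 to 0.72, adjusted p of 1.0). A difference in its palmitate response is therefore not shown after adjustment.

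For Glp1r the C3a change was 0.03 ± 0.07 in vehicle (95% interval -0.12 to 0.19) and 0.03 ± 0.07 in palmitate (-0.12 to 0.19). Its interaction was 0.00 ± 0.10, with an interval from -0.22 to 0.22. Among the 8 members other than Gcgr and Gprc5b, the C3a estimates ran from -0.08 for Ffar1 to 0.13 for Gipr, both in palmitate. The C3a comparisons share their groups with the palmitate comparisons, so these values are not separate from those above.

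Levels between genes were compared as CPM per kilobase of transcript. In vehicle Glp1r stood first at 47.8 ± 5.77 (SD, n = 3), then Sstr3 at 43.6 ± 5.70 and Adra2a at 33.3 ± 7.29. Ffar1 followed at 23.1 ± 0.77, Casr at 20.9 ± 0.94 and Gipr at 17.2 ± 2.00. Chrm3 (14.1 ± 0.59), Gcgr (13.7 ± 1.39), Gpr119 (9.97 ± 2.27) and Gprc5b (2.06 ± 0.22) were lower. The ranges of Glp1r and Sstr3 overlapped, as did those of Chrm3 and Gcgr and of Gcgr and Gpr119, and the other neighbours did not overlap.

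In palmitate the order began with Sstr3 at 38.3 ± 3.07, Adra2a at 29.3 ± 10.6 and Glp1r at 25.8 ± 4.30 CPM per kilobase (SD, n = 3). By the group means Glp1r thus went from rank 1 to rank 3, and it did so with C3a too, from 49.0 ± 7.29 to 26.3 ± 2.27. Replicate 1 (batch 1) did not show this move: there Glp1r lay below Sstr3 and above Adra2a in all 4 groups. In its vehicle library Sstr3 was at 50.1 and Glp1r at 41.6, and in its palmitate library Glp1r was at 21.9 and Adra2a at 17.1. The ranges of Adra2a and Glp1r overlapped in palmitate, and those of Sstr3 and Adra2a did not. Below them came Casr at 17.7 ± 2.81 and Ffar1 at 16.8 ± 2.98, whose ranges overlapped, and Gprc5b remained lowest at 1.62 ± 0.03.

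**Figure D4:**
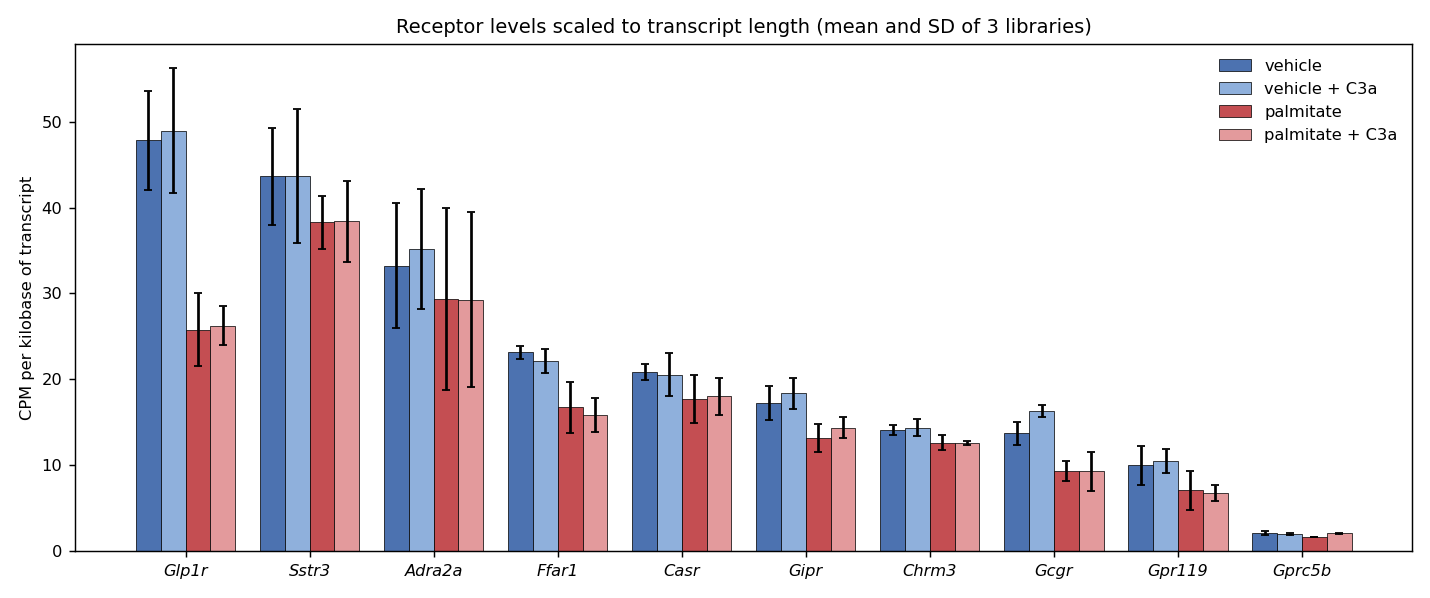
Mean level of each receptor gene in CPM per kilobase of transcript in the 4 groups, with genes ordered by their mean in vehicle; bars start at 0 and error bars are the SD of 3 libraries. By these means, though not in replicate 1 alone, Glp1r leads in both groups without palmitate (47.8 and 49.0). It stands at rank 3 in both groups with it (25.8 and 26.3).

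Of the members, Gcgr, Chrm3 and Casr are counted on more than 1 transcript and the others on 1. Gcgr-201, the protein-coding form, held 63.6% to 85.1% of Gcgr counts and had a log2 change of -0.69 ± 0.09 (edgeR adjusted p = 0.00108 over 41537 transcripts, average palmitate effect). The non-coding forms Gcgr-202 at -0.84 ± 0.34 and Gcgr-204 at -0.83 ± 0.24 did not pass (edgeR adjusted p = 0.193 and 0.0619). Chrm3-202 held 79.2% to 91.3% of Chrm3 counts and fell by 0.24 ± 0.04 (edgeR adjusted p = 0.00411), while Chrm3-201 was at -0.07 ± 0.17 (0.888). Casr-201 held 62.4% to 71.6% of Casr counts and passed at -0.26 ± 0.07 (edgeR adjusted p = 0.0491), and Casr-203 did not, at -0.18 ± 0.13 (0.505). Adra2a has 1 transcript, which at -0.28 ± 0.08 did not pass over all transcripts (0.0719). The shares of each form with and without palmitate overlapped for Gcgr, Chrm3 and Casr. How the counts of 1 gene are divided among its forms is an estimate of the quantification.

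Beyond the 10 members, 182 of 205 listed genes were tested, 69 of them for other receptors and the rest for signalling partners and ligands. Of the 182, 34 rose and 52 fell in the average palmitate effect, against 20.3% and 19.4% of all genes. The lists too were chosen with earlier results of these data known. Of 34 genes of the Gs and cyclic AMP chain 15 fell and 5 rose (median log2 change -0.13). Adcy1, an adenylyl cyclase gene, rose by 2.11 ± 0.10 from 1.49 to 3.31 CPM without palmitate to 6.22 to 16.2 CPM with it (edgeR adjusted p = 9.54e-08). Prkacb, a catalytic subunit gene of protein kinase A, fell by 0.40 ± 0.03 (3.18e-06), its regulatory subunit gene Prkar2b by 0.43 ± 0.04 (9.39e-06) and Rapgef4, which encodes the cyclic AMP sensor EPAC2, by 0.34 ± 0.03 (9.57e-06). Gnas, the gene for the Gs alpha subunit, was at -0.04 ± 0.04 and did not pass (0.511).

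Of 21 genes of the Gq and phospholipase C chain, 7 fell and 2 rose (median -0.12). The calcium release channel gene Itpr1 fell by 0.55 ± 0.08 (edgeR adjusted p = 0.000544), the phospholipase gene Plce1 by 0.72 ± 0.13 (0.00106) and the protein kinase C gene Prkce by 0.23 ± 0.05 (0.00183), while the diacylglycerol kinase gene Dgkz rose by 0.21 ± 0.04 (0.000943). Of 18 Gi/o and beta-gamma genes, 7 rose and 5 fell (median -0.06). The alpha subunit genes moved in both directions: Gnai1 fell by 0.64 ± 0.05 (edgeR adjusted p = 1.38e-06) and Gnaz by 0.33 ± 0.03 (1.05e-05), whereas Gnai2 rose by 0.25 ± 0.03 (4.61e-05). The gamma subunit gene Gng5 rose by 0.44 ± 0.04 (2.97e-06).

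Of 25 genes for receptor kinases, arrestins, RGS proteins and receptor activity-modifying proteins, 7 rose and 4 fell (median 0.01). Ramp2, a partner that sets the specificity of some peptide receptors, rose by 0.92 ± 0.06 (edgeR adjusted p = 9.04e-07), and the RGS genes Rgs4 and Rgs3, whose products shorten G protein signals, by 0.67 ± 0.05 (3.03e-06) and 0.25 ± 0.04 (0.000192). The receptor kinase gene Grk5 fell by 0.43 ± 0.03 (2.96e-06). Of a list of 19 genes for peptide ligands and for enzymes that make or cut ligands (Chat and Dpp4), 15 were tested, of which 4 rose and 1 fell. Ucn3, a beta cell peptide, fell by 0.28 ± 0.05 (edgeR adjusted p = 0.000852) and the peptide YY gene Pyy rose by 0.28 ± 0.06 (0.00224), as did Cartpt by 0.75 ± 0.18 (0.00619). Cck passed at 1.35 ± 0.43 (0.0272) from at most 0.69 CPM in any library, and that call ended in 6 of 18 alternatives. Gcg, which encodes glucagon and GLP-1, was at 0.02 ± 0.04 (0.711), and Gip had 2 counts and was not tested.

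Among 88 other receptor genes 69 were tested, 20 fell and 9 rose (median -0.13), so both directions occurred. Oxtr, the oxytocin receptor gene, rose by 0.95 ± 0.04 (edgeR adjusted p = 4.06e-08), from 32.7 to 42.3 CPM without palmitate to 65.0 to 74.6 CPM with it. The neurokinin receptor gene Tacr3 rose by 2.20 ± 0.17 (2.05e-06) from at most 2.39 CPM, and the vasopressin receptor gene Avpr1b by 0.81 ± 0.08 (1.39e-05). Ffar3, a receptor for short-chain fatty acids, fell by 0.56 ± 0.05 (5.68e-06). The C3a receptor gene C3ar1 was at -0.10 ± 0.12 and did not pass (0.528).

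**Figure D5:**
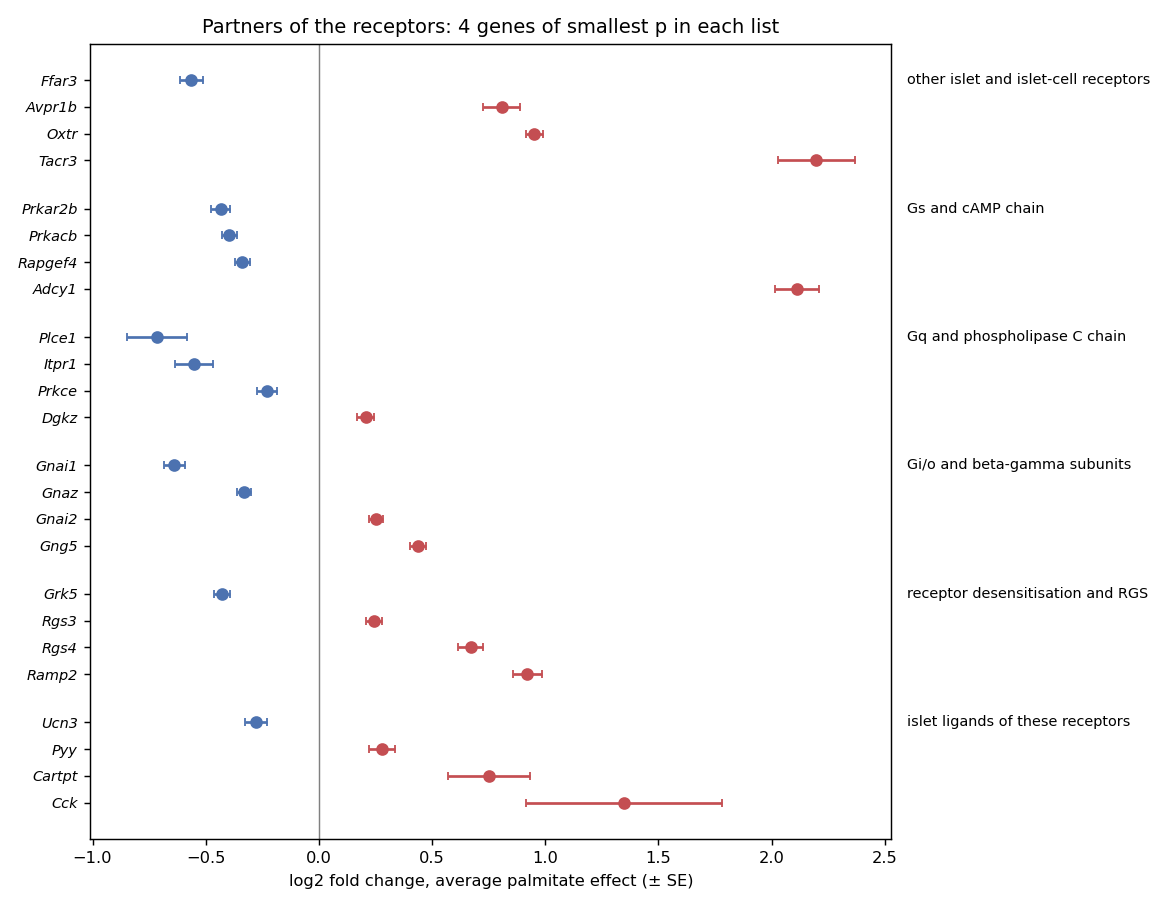
Average palmitate effect (log2 fold change, edgeR) of the 4 genes with the smallest p in each of 6 lists of receptor partners, all of which passed an adjusted p of 0.05; error bars are the SE, red is higher and blue lower with palmitate. Adcy1 at 2.11 and Tacr3 at 2.20 stand highest, and Plce1 at -0.72 and Gnai1 at -0.64 lowest.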

How the data were processed

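The authors deposited estimated counts per transcript, as whole numbers, for 12 libraries. A stranded TruSeq mRNA kit was used, per the labels' protocols. Kallisto and DESeq2, with GRCm38, appear per the submitters' processing notes, which give no role or version; the strand setting is not given in the sources used here. By identifier, 69942 of 71524 transcripts matched GENCODE M21, which gave 22141 genes; 0.581% to 0.677% of a library's counts lay on the 1582 others and were left out. Genes passing filterByExpr (15794) were fitted in edgeR 4.0.16 (R 4.3.3; robust quasi-likelihood, TMM factors 0.967 to 1.045) with group and batch over all 12 libraries, leaving 7 residual degrees of freedom. Tests were two-sided, and p was adjusted by Benjamini-Hochberg over all genes. SE was taken as |log2 fold change| over the root of the F statistic. CPM uses TMM-scaled totals, and levels per kilobase sum each transcript's CPM over its length.

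Over 66 library pairs chi-squared was at least 7.23 per degree of freedom, so none was a duplicate. The numbers were taken to pair the libraries: column names of replicates 2 and 3 hold a date-like tag common to the groups, and same-numbered libraries deviated together (18 pairs, lowest correlation 0.395, mean 0.575). Those values include the difference between batches; in batch 2 alone the 6 distinct values had a lowest of 0.0799 and a mean of 0.115. The fit was tested on simulated data.

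The members, the lists and the rule for named genes (4 per list by smallest p) were chosen with earlier results of these data known. Alternatives were a replicate block, no batch term, DESeq2 1.42.0 and its size factors, no filter, batch 2 alone, only the compared groups, the most abundant transcript, and leaving out each library.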

Additional observations from a re-analysis of the deposited data

How the results depend on the processing

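Over 990 alternatives of single genes, 921 kept their direction and their side of the threshold, 61 lost the call, 3 gained it and 5 reversed. Glp1r and Gcgr passed in every alternative of all 3 palmitate comparisons, and Ffar1, Gpr119 and Chrm3 in every alternative of the average. Without a batch term 1841 (palmitate against vehicle), 2074 (with C3a) and 4079 genes (average) passed in place of 4005, 4246 and 6271, and 4, 3 and 6 members in place of 8, 8 and 8. In the average this removed Adra2a (adjusted p = 0.56) and Sstr3 (0.195). In batch 2 alone, with fewer libraries, 2058 and 2331 genes and 3, 4 and 6 members passed, and the average lost Gipr and Adra2a. Leaving out 1 library gave 4 to 7 members without C3a, 5 to 7 with it and 8 in the average. Of all genes, 2760 to 3751, 3023 to 3849 and 5528 to 6200 then passed. With the replicate number as a block 8, 7 and 9 members passed, beside 4612, 4779 and 6832 of all genes. The block changed no other member's call than those of Adra2a and Casr given above.

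For C3a within vehicle, 2 genes passed with DESeq2, 3 without a filter and 2 with only the compared groups; within palmitate, 1 passed with DESeq2, 1 in batch 2 alone and, leaving out 1 library, 0 to 1 (1 without palmitate with C3a replicate 1). None was a member. The C3a change of Gcgr in palmitate, 0.01, became -0.0015 with DESeq2 size factors, -0.0023 with DESeq2, and -0.15 to 0.10 on leaving out 1 library. That of Gprc5b in vehicle ran from -0.17 to 0.012 on leaving out 1 library. With the length of the most abundant transcript the vehicle level was 11.9 for Chrm3, below Gcgr at 13.95, and 19.3 for Casr.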

Other observations

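Over the 12 libraries, with batch means removed, the genes whose log2 CPM was most like that of Glp1r among 10632 genes were Ankrd44 (Pearson r = 0.995, Spearman rho = 0.965), Sepsecs and Fbxo32 (r = 0.994). For Gcgr they were the uridine phosphorylase gene Upp2, the forkhead factor gene Foxo4 (r = 0.985) and Gjd2, which encodes the gap junction protein connexin 36 of beta cells (r = 0.983, rho = 0.993). For Gipr they were Dlgap3 (r = 0.972), Sox4 (0.959) and Rnf219 (0.944), and for Ffar1 they were Ppp6r3 (0.986), Sorbs2 (0.982) and Ctcf (0.98). Chrm3 was closest to Atg9a (0.99), Casr to Hs6st3 (0.972) and Gprc5b to Rpp14 (0.919). The 12 points share the palmitate split and their library depth, so the values describe these libraries and carry no p. Glp1r itself correlated at 0.968 with Chrm3 and 0.933 with Ffar1, but at 0.413 with Gprc5b.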
